A study of Mus musculus with 6 samples.

Results

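The 10 genes described here mark the path from macrophage precursor to osteoclast, and were taken by symbol from a table of 22192 genes: Tnfrsf11a, Oscar, Nfatc1, Calcr, Dcstamp, Ocstamp, Acp5, Ctsk, Mmp9 and Atp6v0d2. All 10 symbols were present, and 6 were abundant enough to test. The cells were RAW 264.7, a transformed mouse macrophage line labelled BALB/c, which can form osteoclasts in culture when given the right ligand. One group of 3 libraries came from cells kept for 24 h in medium with 200 µg/mL of ASPS-A1, the acidic fraction of a leaf polysaccharide of the shrub Acanthopanax senticosus, and the other group of 3 libraries is labelled control. The labels name no osteoclast-inducing ligand in either group and no vehicle for the control, and they do not say whether the libraries of a group came from separate cultures, so p-values measure the spread between these libraries only.

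Osteoclasts are multinucleated cells of the monocyte lineage that dissolve bone. RANK, the receptor encoded by Tnfrsf11a, is engaged by RANK ligand and signals through TRAF6, NF-κB and AP-1, while adaptor-coupled receptors such as OSCAR add a calcium signal. Both inputs switch on Nfatc1, the transcription factor that drives fusion genes such as Dcstamp and the genes for acid and enzyme secretion, among them Acp5, Ctsk, Mmp9 and Atp6v0d2. RAW 264.7 cells are widely used as precursors for this programme.

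Total counts per library ran from 19989318 to 26137127 and were lower with ASPS-A1 (exact permutation test, two-sided, p = 0.1, the smallest that 3 libraries against 3 can give). Values are given as CPM, counts scaled to library size with TMM factors, and fold changes compare ASPS-A1 with control. Macrophage markers other than Mrc1 were abundant in every library. The 10 genes summed to 2269 to 2295 CPM in control and 3215 to 3341 CPM with ASPS-A1. Of the 9 tested, 7 rose (32.4% of all genes tested did). Mrc1, not tested, had 1 count in control replicate 2 and no count in the other libraries. Markers of other cells were scarce. The 5 fibroblast genes summed to at most 0.543 CPM, the 8 neutrophil genes to at most 0.496 CPM, the 5 lymphocyte genes to at most 0.109 CPM and the 7 dendritic cell genes to at most 5.14 CPM in any library, and Ly6g, Mpo, Elane, Ngp, S100a9, Cd3e and Cd3g had no count. Among 10 osteoblast and osteocyte markers Bglap, Alpl and Ibsp had no count, while Sost, which encodes the secreted Wnt inhibitor sclerostin, was at 72.7 to 81.1 CPM in control and 45.1 to 49.5 CPM with ASPS-A1. Without Sost, the other 9 summed to at most 3.79 CPM. Whether the changes in macrophage markers or Sost had a part in the results for the 10 genes was not tested.

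The regulator Nfatc1 fell 2.31-fold with ASPS-A1, while the effector genes Acp5 and Mmp9 rose 3.01-fold and 1.83-fold. The fusion gene Dcstamp fell 1.35-fold, and Tnfrsf11a differed by less than the spread between libraries. Of the 6 members tested, 2 were higher and 2 lower at an adjusted p under 0.05 (edgeR's quasi-likelihood test with Benjamini-Hochberg adjustment). That threshold was passed by 65.3% of all 11686 genes tested (32.4% higher and 33.0% lower), so 4 calls among 6 genes are close to the background share. The 4 other members, Oscar, Calcr, Ocstamp and Ctsk, had at most 22 counts over all 6 libraries and were not tested. In whole-culture RNA, fewer cells that express a gene and less of its RNA per cell cannot be told apart.

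**Figure D1:**
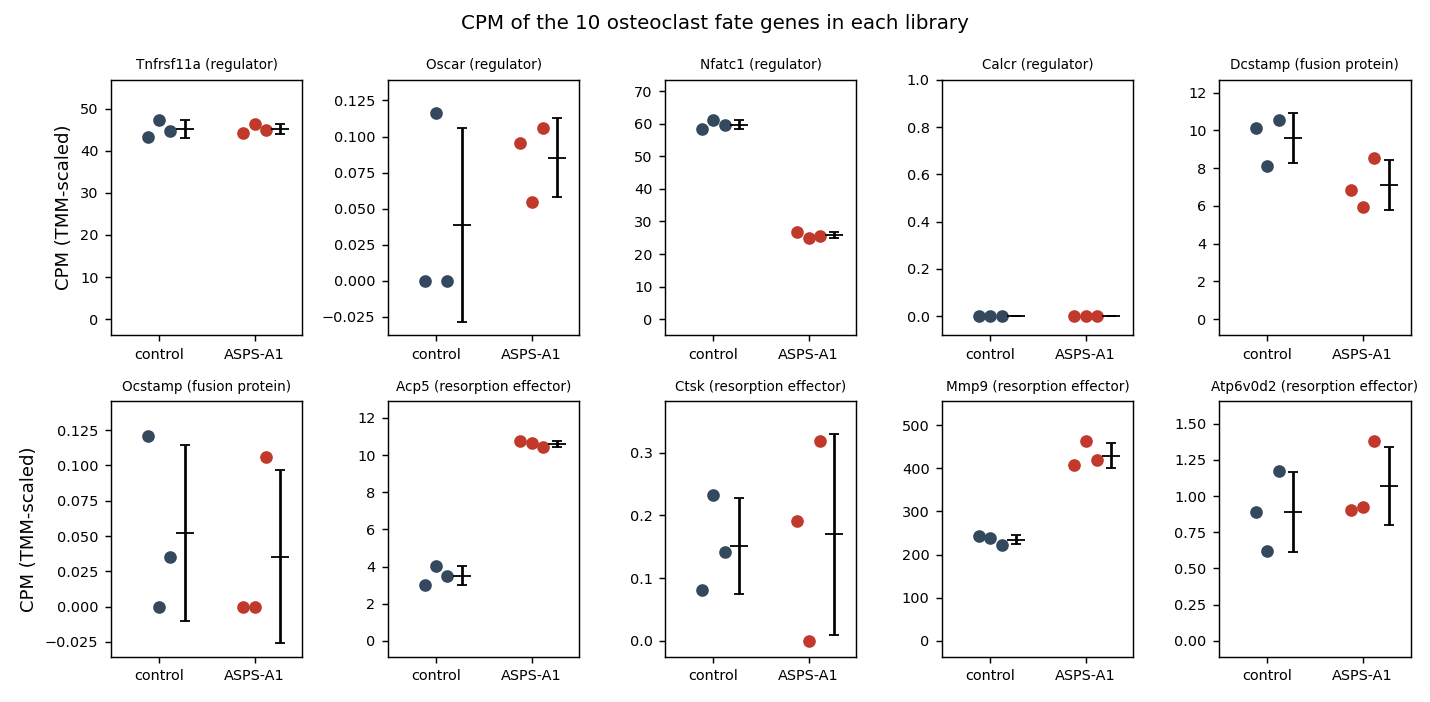
CPM (TMM-scaled, linear axes that differ between panels) of each member in each library, with control in dark blue, ASPS-A1 in red and the mean ± SD (n = 3) in black beside the points. The groups are apart for Nfatc1, Acp5 and Mmp9, they overlap for Tnfrsf11a, Dcstamp and Atp6v0d2, and Oscar, Calcr, Ocstamp and Ctsk lie below 0.32 CPM in every library.

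Among the regulators, Tnfrsf11a encodes RANK, the receptor that starts osteoclast differentiation. Its level was 43.2, 47.4 and 44.8 CPM in the control libraries and 44.1, 46.5 and 45.0 CPM with ASPS-A1. The ASPS-A1 values lay inside the control range. The log2 fold change was 0.0019 ± 0.068 (SE, adjusted p = 0.982), with an approximate 95% interval for the ratio of 0.912 to 1.10. This value follows the scaling: with library totals alone it was −0.19 (adjusted p = 0.0126), and after correction for transcript length and GC content it was 0.21 (adjusted p = 0.00454).

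Nfatc1 encodes the transcription factor regarded as the master switch of osteoclast formation. In control it stood at 58.4, 61.3 and 59.5 CPM, and with ASPS-A1 at 26.9, 25.1 and 25.4 CPM. All 3 ASPS-A1 libraries were below every control library, and the means were 25.8 ± 0.961 against 59.7 ± 1.42 CPM (SD, n = 3). The log2 fold change was −1.21 ± 0.071 (SE, adjusted p = 1.12e-19), and it ran from −1.41 to −0.98 over the 15 alternative settings. Non-overlapping groups were found for 68.5% of all genes tested.

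Oscar and Calcr were near or at 0. Oscar, a collagen-binding receptor that supplies the co-stimulatory signal, had 0, 3 and 0 counts in control and 2, 1 and 2 with ASPS-A1. Calcr encodes the calcitonin receptor, through which calcitonin stops resorption in mature osteoclasts. It had no count in any of the 6 libraries, which allows a level of up to 0.0219 CPM over all of them (3 counts, counting error only). No difference was detectable for either gene at this depth.

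The 2 fusion proteins differed in abundance. Dcstamp encodes a membrane protein needed for precursors to fuse into multinucleated cells, and was at 10.1, 8.09 and 10.6 CPM in control and 6.83, 5.92 and 8.53 CPM with ASPS-A1. The highest ASPS-A1 library was above the lowest control library, so the groups overlapped. Its log2 fold change was −0.44 ± 0.15 (SE, adjusted p = 0.00827). The call was lost without ASPS-A1 replicate 2 (−0.33, adjusted p = 0.0640) and without control replicate 3 (−0.36, adjusted p = 0.0575). Ocstamp, which encodes a related membrane protein that also serves fusion, had 3, 0 and 1 counts in control and 0, 0 and 2 with ASPS-A1, too few to compare.

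Acp5 had the largest change of the 6 tested members. It encodes tartrate-resistant acid phosphatase, the enzyme whose stain identifies osteoclasts, which some macrophages also make. The control libraries had 3.02, 4.03 and 3.51 CPM and the ASPS-A1 libraries 10.7, 10.7 and 10.4 CPM. The lowest ASPS-A1 library was above the highest control library, and the means were 10.6 ± 0.157 against 3.52 ± 0.501 CPM (SD, n = 3). The log2 fold change was 1.59 ± 0.16 (SE, adjusted p = 3.32e-12), with a range of 1.34 to 1.69 over the 15 alternatives. In the GENCODE M21 annotation, 6.75% of the Acp5 exon length is shared with 6530413G14Rik on the opposite strand, and whether counting used strand is not given in the sources used here.

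The sequence before the start site is shown for Acp5, the member that changed most, and for Tnfrsf11a, whose level was nearly the same in both groups. Each is 250 bases, 5′ to 3′ on the gene's strand, from RefSeq on GRCm38.p6, at chr9:22130599-22130848 (minus strand, 1 of the 3 Acp5 windows in the table) and chr1:105780473-105780722 (plus strand). Capitals mark matches, on either strand, to the NFAT core TGGAAA, the PU.1 core GAGGAA, the AP-1 site TGANTCA or the E-boxes CACGTG and CATGTG that MITF and TFE factors bind.
Acp5: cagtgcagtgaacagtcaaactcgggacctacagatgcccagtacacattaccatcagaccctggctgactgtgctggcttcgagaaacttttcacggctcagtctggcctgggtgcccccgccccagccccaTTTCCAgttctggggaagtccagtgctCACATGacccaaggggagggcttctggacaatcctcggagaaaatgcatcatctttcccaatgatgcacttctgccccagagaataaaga
Tnfrsf11a: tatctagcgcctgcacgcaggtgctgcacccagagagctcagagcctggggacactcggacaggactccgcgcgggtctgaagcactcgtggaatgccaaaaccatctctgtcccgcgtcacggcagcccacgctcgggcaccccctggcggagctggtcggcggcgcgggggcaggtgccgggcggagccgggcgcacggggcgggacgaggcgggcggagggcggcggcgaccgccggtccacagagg
The Acp5 window held the NFAT core, read as TTTCCA and starting 117 bases before the start site, and 1 E-box, read as CACATG and starting 90 bases before it. The other 2 Acp5 windows and the Tnfrsf11a window held no match. Over all 32851 windows of this length in the table, the NFAT core was present in 18.6%, the PU.1 core in 23.3%, either E-box in 17.6% and the AP-1 site in 6.75%. Windows were also found for Calcr, Ctsk and Oscar, so that 5 of the 10 members had a window. The Oscar window held 2 NFAT cores, 1 PU.1 core and 1 E-box. The Ctsk window held 2 PU.1 cores and no other match, and the Calcr windows held no match. A match is a description of letters and says nothing of binding in these cells.

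Mmp9 was the most abundant member, in CPM and per kilobase of transcript. It encodes a secreted gelatinase that osteoclasts and activated macrophages both release. It was at 243, 238 and 223 CPM in control and 407, 462 and 418 CPM with ASPS-A1. The groups did not overlap, with means of 429 ± 29.1 against 235 ± 10.8 CPM (SD, n = 3). The log2 fold change was 0.87 ± 0.050 (SE, adjusted p = 9.02e-20), and it was 0.67 to 0.94 over the 15 alternatives.

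The other 2 effectors showed no call. Ctsk encodes cathepsin K, the protease that digests bone collagen. It had 2, 6 and 4 counts in control and 4, 0 and 6 with ASPS-A1, about 0.152 and 0.170 CPM, and no difference was detectable at this depth. Atp6v0d2 encodes an osteoclast-enriched subunit of the proton pump that also takes part in fusion. It was at 0.887, 0.619 and 1.17 CPM in control and 0.907, 0.924 and 1.38 CPM with ASPS-A1, and the groups overlapped. Its log2 fold change of 0.25 ± 0.39 (SE, adjusted p = 0.591) had an approximate 95% interval for the ratio of 0.699 to 2.02, so the data allow a change of the size seen for Mmp9.

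**Figure D2:**
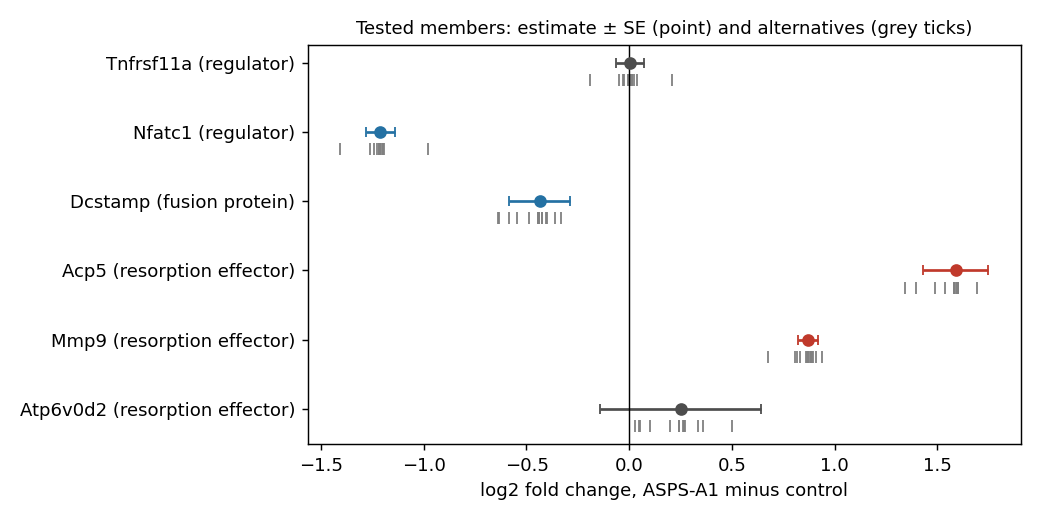
Log2 fold change (ASPS-A1 minus control) of the 6 tested members, as the estimate ± SE (red higher, blue lower, dark grey not called) with each alternative setting as a grey tick below it. All of them but Tnfrsf11a stay on 1 side of 0 in every setting that tested them, Atp6v0d2 without a call in any. Tnfrsf11a has ticks on both sides from −0.19 to 0.21, and Atp6v0d2 has the widest error.

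By role, the 2 tested regulators had a median log2 fold change of −0.60 (1 lower, 1 not called), the 1 tested fusion gene had −0.44, and the 3 tested effectors had a median of 0.87 (2 higher, 1 not called). The regulator median lies between −1.21 for Nfatc1 and 0.0019 for Tnfrsf11a and describes neither gene. The median over all genes tested was −0.021. Since low members could not be tested, these medians describe 6 of the 10 genes and not the programme.

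Per kilobase of the longest annotated transcript, the order of the members changed. In control, Mmp9 stood first at 74.0 ± 3.39 CPM per kb, then Nfatc1 at 12.5 ± 0.296, Tnfrsf11a at 8.98 ± 0.421, Dcstamp at 4.80 ± 0.660, Acp5 at 2.43 ± 0.346 and Atp6v0d2 at 0.351 ± 0.108 (SD, n = 3). With ASPS-A1, Mmp9 again stood first at 135 ± 9.15 CPM per kb, then Tnfrsf11a at 8.99 ± 0.237, Acp5 at 7.33 ± 0.108, Nfatc1 at 5.38 ± 0.200, Dcstamp at 3.55 ± 0.662 and Atp6v0d2 at 0.421 ± 0.105. The ranges of neighbours in these orders did not overlap within either group. Below them in both groups, the range of Ctsk overlapped that of Oscar, and Calcr was at 0.

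The order of Acp5 and Nfatc1 within a library turned over only per kilobase of transcript. In CPM, Acp5 stayed below Nfatc1 in every library (10.7, 10.7 and 10.4 against 26.9, 25.1 and 25.4 with ASPS-A1). Per kilobase, the ratio of Acp5 to Nfatc1 was 0.172, 0.218 and 0.196 in the control libraries and 1.32, 1.41 and 1.36 with ASPS-A1. A scaling factor per library cancels in this ratio, but differences between libraries tied to transcript length or GC content do not. The longest transcripts of Acp5 and Nfatc1 have 1447 and 4797 bases. The ratio of Mmp9 to Nfatc1 went from 6.29, 5.88 and 5.66 to 22.9, 27.9 and 24.9. The ratio of Nfatc1 to Tnfrsf11a, the transcription factor to its upstream receptor, was 1.42, 1.35 and 1.39 in control and 0.639, 0.565 and 0.592 with ASPS-A1.

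**Figure D3:**
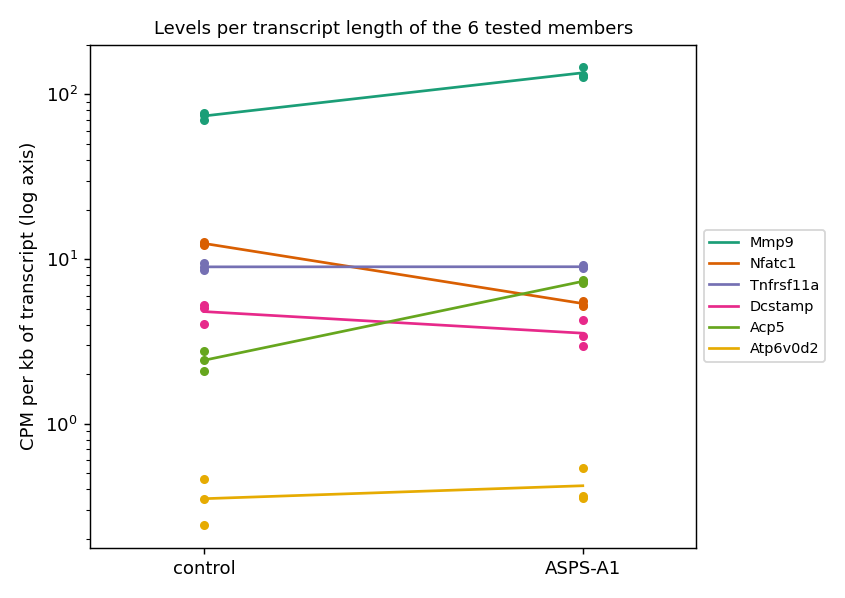
CPM per kilobase of transcript (log axis) of the 6 tested members, with 1 point per library and a line joining the group means. The line of Acp5 rises from 2.43 to 7.33 and crosses that of Nfatc1, which falls from 12.5 to 5.38. In CPM not divided by length, Acp5 is below Nfatc1 in both groups. Tnfrsf11a is level at about 9 and Mmp9 stays far above the others.

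The ligand and its decoy receptor were absent or nearly so. Tnfsf11, which encodes RANK ligand, had no count in any library (up to 0.0219 CPM over all 6), and Tnfrsf11b, which encodes the decoy osteoprotegerin, had 1 count in 1 ASPS-A1 library. Of 21 tested genes of RANK and co-stimulatory signalling, 10 fell, 4 rose and 7 were not called, with a median log2 fold change of −0.20. Among all genes tested 33.0% fell and 32.4% rose, which is the background for this list and each list below. With scaling by library totals alone, 16 of the 21 fell and their median was −0.39. After the correction for transcript length and GC content their median was −0.13. Traf6, the adaptor that RANK uses, fell from 19.3 ± 2.14 to 10.3 ± 0.788 CPM (log2 fold change −0.91). Trem2, a receptor coupled to the adaptor DAP12, fell from 69.3 ± 1.96 to 39.6 ± 1.55 CPM (−0.81), and the kinase gene Tec fell by 0.77 on the log2 scale. Fcer1g, which encodes the Fc receptor common chain that pairs with OSCAR, rose from 261 ± 9.29 to 485 ± 27.4 CPM (0.90). Over the 15 alternatives its log2 fold change ran from 0.38 to 0.94. The scaffold gene Lcp2 rose by 0.78. Tyrobp, which encodes DAP12, rose by 0.37, but it was lower after the correction for transcript length and GC content (−0.13, adjusted p = 0.00529).

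Of 17 genes for transcription factors that act with Nfatc1, 9 rose and 5 fell, and 3 had no call (median 0.14). With library totals alone 8 rose and 7 fell (median −0.053), and with the length and GC offsets 10 rose and 5 fell (median 0.40). Myc rose from 5.88 ± 0.571 to 26.1 ± 3.90 CPM (log2 fold change 2.16). The AP-1 gene Fos, needed for Nfatc1 induction, rose from 2.75 ± 0.434 to 7.18 ± 0.483 CPM (1.38), and Jdp2, which encodes a Jun-binding protein, rose from 39.3 to 86.4 CPM (1.14). Prdm1, which encodes the repressor BLIMP1 that Nfatc1 uses to silence anti-osteoclast genes, fell from 58, 59 and 83 counts to 10, 14 and 13 (−1.98). Fosl2 fell (−0.57), and Fosl1 fell (−0.64) but lost its call without control replicate 3 (−0.54, adjusted p = 0.0566); 57.2% of the Fosl1 exon length is shared with Ccdc85b on the opposite strand.

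Of 12 tested repressors of the programme, 4 rose, 4 fell and 4 were not called (median 0.061). With library totals alone the split was 3 risen and 6 fallen, with a median of −0.14, and with the length and GC offsets 6 risen and 3 fallen (median 0.17). The Id genes, which encode inhibitors of helix-loop-helix factors, rose together. Id3 was at 2.62, 2.67 and 1.91 CPM in control and 15.3, 19.0 and 14.3 CPM with ASPS-A1, a log2 fold change of 2.76 ± 0.16 (SE, adjusted p = 4.47e-20). Id1 rose by 1.88 and Id2 by 1.03 on the log2 scale, and all 3 kept their direction and call in the 15 alternatives. Rbpj, which encodes the DNA-binding factor of Notch signalling, fell from 885 ± 16.5 to 581 ± 31.9 CPM (−0.61), and Pias3 fell by 0.34. Traf3, which restrains the non-canonical NF-κB pathway, fell by 0.43, or by 0.14 with the offsets (adjusted p = 0.0703). Irf8, a repressor of Nfatc1 in precursors, had 0.067 (adjusted p = 0.310), and was chosen for mention after its value was seen.

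Fusion and adhesion genes split, with 6 of 14 tested risen, 5 fallen and 3 not called (median 0.047), or 4 risen and 8 fallen with library totals alone (median −0.15). Cd44 (0.61), the metalloproteinase gene Adam8 (0.55) and the small GTPase gene Cdc42 (0.44) rose. Itgav, the α chain of the vitronectin receptor by which osteoclasts hold on to bone, fell from 57.0 ± 1.34 to 35.0 ± 4.22 CPM (−0.71). Its partner Itgb3, chosen after its values were seen, had 10, 9 and 10 counts in control and 0, 2 and 3 with ASPS-A1, and was too low to test. Cd200r1 fell (−1.03), with its call lost without control replicate 3 (−0.75, adjusted p = 0.0786). Sh3pxd2a, which encodes a podosome scaffold, fell (−0.47), with its call lost under the length and GC offsets (−0.16, adjusted p = 0.135).

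The general acid and resorption machinery was mostly abundant, and 9 of 23 genes rose, 5 fell and 9 were not called (median 0.067). Library totals alone gave 7 risen and 10 fallen (median −0.13), and the length and GC offsets 11 risen and 6 fallen (median 0.21). The list holds 14 genes for proton pump subunits or the pump's accessory protein Atp6ap1, of which 9 rose, 1 fell and 4 were not called. Of all genes tested, 32.4% rose and 33.0% fell. Atp6v0c went from 300 ± 8.48 to 549 ± 33.4 CPM (0.87), Atp6v0b rose by 0.88 and Atp6v1g1 by 0.80. Their smallest log2 fold changes over the 15 alternatives were 0.67, 0.50 and 0.40, in that order. The pump gene that fell was Atp6v1a, by 0.18, and the pump genes were grouped and Atp6v1a named after their values were seen. Of the Atp6v0b exon length, 11.8% is shared with Gm12841 on the opposite strand. Plekhm1, whose product directs lysosomes to the ruffled border, fell from 103 ± 1.74 to 56.7 ± 3.33 CPM (−0.86). Ostm1, a partner of the chloride exchanger that osteoclasts need for acid secretion, fell by 0.66, and Rab3d fell by 0.43.

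Paralogs set the members' changes beside those of their relatives. Of 12 tested, 8 rose and 4 fell, where 32.4% of all genes tested rose and 33.0% fell. Their median was 0.59, or 0.39 with library totals alone (7 risen) and 0.40 when genes needed 1 CPM or more in 3 libraries. The 3 tested NFAT relatives of Nfatc1 fell: Nfat5 from 255 ± 7.99 to 148 ± 16.4 CPM (−0.79), Nfatc2 from 20.9 ± 1.54 to 13.8 ± 0.984 CPM (−0.60) and Nfatc3 by 0.30, the last not called with the length and GC offsets (−0.095, adjusted p = 0.128). Nfatc4, too low to test, had 0 counts in each control library and 4, 1 and 5 with ASPS-A1. Of the 4 metalloproteinase genes in the list, 2 could be tested, Mmp12 and Mmp13. Mmp12, the macrophage elastase gene, went from 12, 46 and 24 counts to 76, 86 and 103 (2.13, or 2.75 without control replicate 2). Mmp13, a collagenase gene, went from 0, 4 and 0 counts to 20, 20 and 21 (4.23). Its control counts are all in replicate 2, so the size of this change has little support. Mmp13 passed the count filter only through the ASPS-A1 libraries, so being tested already fixed its direction. Its call gives no support for a rise among the paralogs, though it is counted in the 8 risen and in the median of 0.59. Calcrl, a relative of Calcr, rose from 0.524 ± 0.157 to 2.58 ± 0.583 CPM (2.30). Further relatives were chosen for mention after their values were seen. The lysosomal cathepsin gene Ctsb rose from 2968 ± 46.0 to 5042 ± 120 CPM (0.76). Ctsl rose by 0.89 and Ctsz by 0.85, while Ctss fell by 0.20. Acp2, a relative of Acp5, rose by 0.41. Atp6v0d1, the widely expressed counterpart of Atp6v0d2, rose from 122 ± 1.66 to 154 ± 3.97 CPM (0.34). Opposite-strand genes also share exon length with Ctsb (12.8%), Acp2 (12.6%), Jdp2 (7.68%), Lcp2 (6.32%), Itgav (5.90%), Ostm1 (5.69%) and Plekhm1 (5.60%). Of the Ctsl exon length, 26.8% is shared with Gm47123 on the opposite strand and Gm49230 on the same strand.

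**Figure D4:**
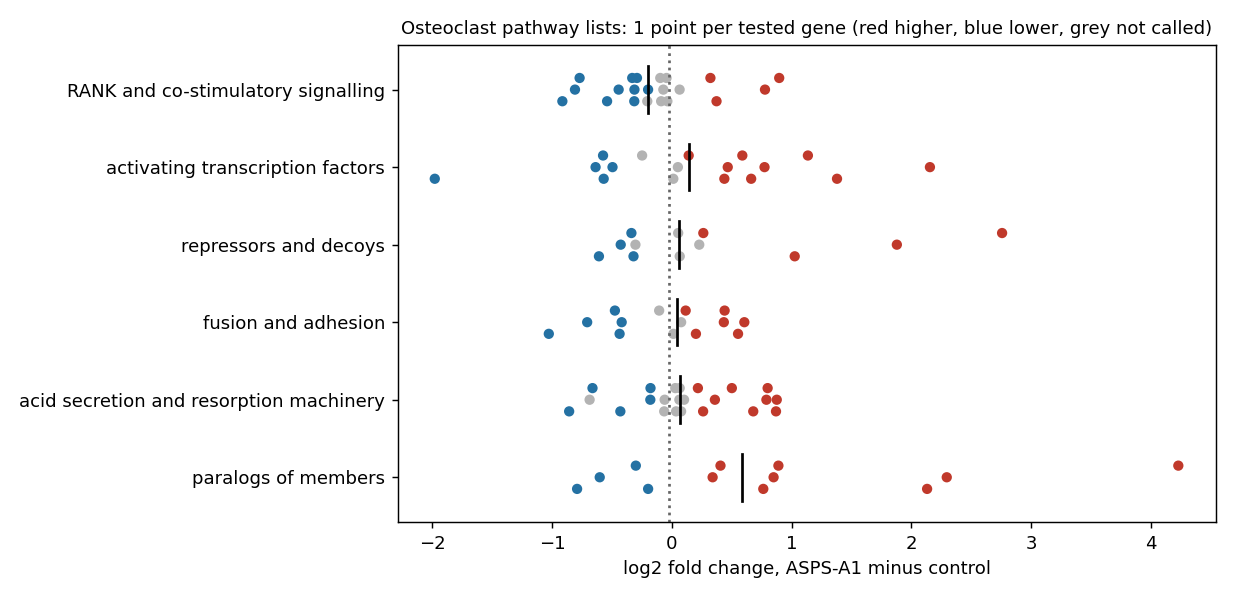
Log2 fold change (ASPS-A1 minus control) of each tested gene in 6 lists around osteoclast formation, with 1 point per gene (red higher, blue lower, grey not called), the list median as a black bar and the median of all genes tested as a dotted line. Each of the 6 lists has higher and lower genes. The RANK signalling median is at −0.20, and the paralog median is at 0.59.

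The genes whose log2 CPM followed a member most closely over the 6 libraries were found for Mmp9, the most abundant member, and Acp5, the one with the largest called change. For Mmp9 they were Tsg101, Psme2 and Ppia (Pearson r = 0.9998, 0.9995 and 0.9995), and for Acp5 they were Arf6, Snf8 and 4933434E20Rik (0.9989, 0.9988 and 0.9980). These values come from 2 groups of 3 libraries, and 607 genes exceeded 0.99 with Mmp9 and 209 with Acp5, so many genes share this step between the groups.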

How the data were processed

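Polyadenylated RNA of RAW 264.7 cells was sequenced in 6 libraries. The deposited table holds raw counts per gene symbol, not normalized, in a column for each library. The submitters' processing notes name HISAT2 2.1.0 and HTSeq 0.9.1, with fastp 0.22.0 and DESeq 1.38.3. Genome build, annotation, strand setting and handling of shared reads: not given in the sources used here. Groups came from the treatment label.

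Genes were kept with filterByExpr (minimum count 10, minimum total 15), leaving 11686 of 22192, and fitted with edgeR 4.0.16 in R 4.3.3 (TMM, robust glmQLFit, glmQLFTest, two-sided, Benjamini-Hochberg over all genes tested, threshold 0.05). The SE is the absolute log2 fold change over the square root of F. In 5 simulated sets the procedure called 58% of 1.25-fold, 79.6% of 1.5-fold, 90% of 2-fold and 96.4% of 4-fold changes. Each set changed 200 of 11686 genes, while 65.3% were called here, so these sets could not test the scaling between libraries. With so few changed genes the adjusted threshold was also stricter than in the data, so these rates are not those of the main fit. They are taken over genes of all levels and do not describe low members such as Atp6v0d2. Lengths are of the longest GENCODE M21 transcript. Alternatives were other scaling factors, DESeq2 1.42.0, voom of limma 3.58.1, other filters, a replicate block, length and GC offsets (lowess span 0.3), and leaving out each library.

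The members, lists and alternatives were chosen with earlier results of these data known. Named besides the members were up to 3 called genes per list and direction with the largest change and at least 1 CPM, Tnfsf11 and Tnfrsf11b, and the 3 genes most correlated with 2 members. No 2 libraries of a group were copies (chi-square of their counts 4.35 to 7.11 per degree of freedom).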

Additional observations from a re-analysis of the deposited data

How the results depend on the processing

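The calls and directions of Nfatc1, Acp5 and Mmp9 held in all 15 alternatives. Leaving out each library in turn gave 1 to 2 lower members, and the 1 was reached without ASPS-A1 replicate 2 or control replicate 3, where Dcstamp lost its call. With library totals alone, the median of all genes tested moved from −0.021 to −0.22, Tnfrsf11a turned to −0.19 (called lower), 2529 genes were higher and 5454 lower against 3783 and 3852, and the lower counts were 16 for RANK signalling, 8 for fusion and adhesion and 10 for the resorption machinery. With length and GC offsets Tyrobp turned to −0.13 and Tnfrsf11a was called higher (0.21). Atp6v0d2 was not called in any of the 14 alternatives that tested it. Of 36 named genes from the lists, 30 kept direction and call in every alternative that tested them. No shared deviation was seen between same-numbered libraries: their deviations from the group means had correlations across genes of −0.014, 0.0071 and 0.0040. The labels do not say whether these libraries were handled as pairs, and these correlations cannot settle it. With the replicate block, 3746 genes were higher and 3807 lower, and 2 members were higher and 2 lower. Depth limits Oscar, Calcr, Ocstamp and Ctsk, where 3 counts in a library correspond to 0.106 to 0.163 CPM.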
